A study of Mus musculus with 12 samples.

Results

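The step from 8 h to 24 h of stimulation in wild-type (WT) naive CD4+ T cells of the mouse was read from 4 of the 12 RNA libraries of the series, taken by their labels alone: 2 libraries of WT cells at 24 h and 2 of WT cells at 8 h. Naive CD4+ T cells, taken from spleen and a lymph node pool that the labels call pLN, were kept on plates coated with antibodies against CD3, at 5 ug/ml, and CD28, at 2.5 ug/ml. The first acts on the antigen receptor and the second on a costimulatory partner. Total RNA was freed of ribosomal RNA and read as strand-marked paired reads of 150 bases, with 2 libraries per group, and the counts per gene and per repeat locus were tested in 1 fit with the other 8 libraries: WT cells at 0 h, and Ddx55-knockout (KO) cells at 24, 8 and 0 h, 2 libraries each. The labels give no strain, age or carrier allele for the WT cells, no other agent, and no statement that replicate libraries stem from different mice. The p-values therefore reflect the spread of these libraries alone, which may be technical.

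As background, a naive T cell rests outside the cell cycle, with little cytoplasm and low metabolism. Contact with antigen first switches on immediate early transcription factors, ribosome assembly and nutrient uptake, and the cell then enters the cycle. Entry runs through cyclin D and cyclin E kinases, which release E2F factors from retinoblastoma proteins so that genes for origin licensing and DNA synthesis are transcribed, while genes for mitosis are switched on later, from promoters with a cell cycle homology region (CHR) read by the DREAM and MuvB complexes.

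Gene counts of the 4 libraries lay between 17333276 and 18831531 per library. Levels below are counts scaled by library size to CPM with TMM factors, and fold changes are log2 values of 24 h over 8 h with their SE from edgeR's quasi-likelihood fit, called at a Benjamini-Hochberg adjusted p under 0.05. Ddx55, the RNA helicase gene targeted in the KO line, had 52.9 and 55.2 CPM in WT cells at 24 h, against 68.7 and 64.1 CPM in WT cells at 8 h. Its fold change of -0.30 ± 0.10 was called (adjusted p = 0.0246), but the call was lost when any 1 of the 4 libraries was left out (adjusted p between 0.0518 and 0.138). Libraries labelled KO had 14.4 to 19.5 CPM of it. RNA of the T cell receptor complex and of Cd4 was present throughout: Cd4, the coreceptor that names the cells, had 505 and 527 CPM at 24 h, against 275 and 265 CPM at 8 h, and Cd3e, a chain of the complex, had 138 and 160 CPM at 24 h, against 201 and 211 CPM at 8 h. In bulk RNA of this kind, fewer cells that express a gene and less RNA per cell cannot be told apart.

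Of 15679 genes tested, 3763 (24.0%) were higher at 24 h and 3020 (19.3%) were lower, 43.3% in all. The libraries at 24 h and at 8 h did not overlap for 11649 genes (74.3%). The median fold change of all genes was 0.00 on the log2 scale. The counts of gene lists below are to be read against these shares.

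**Figure D1:**
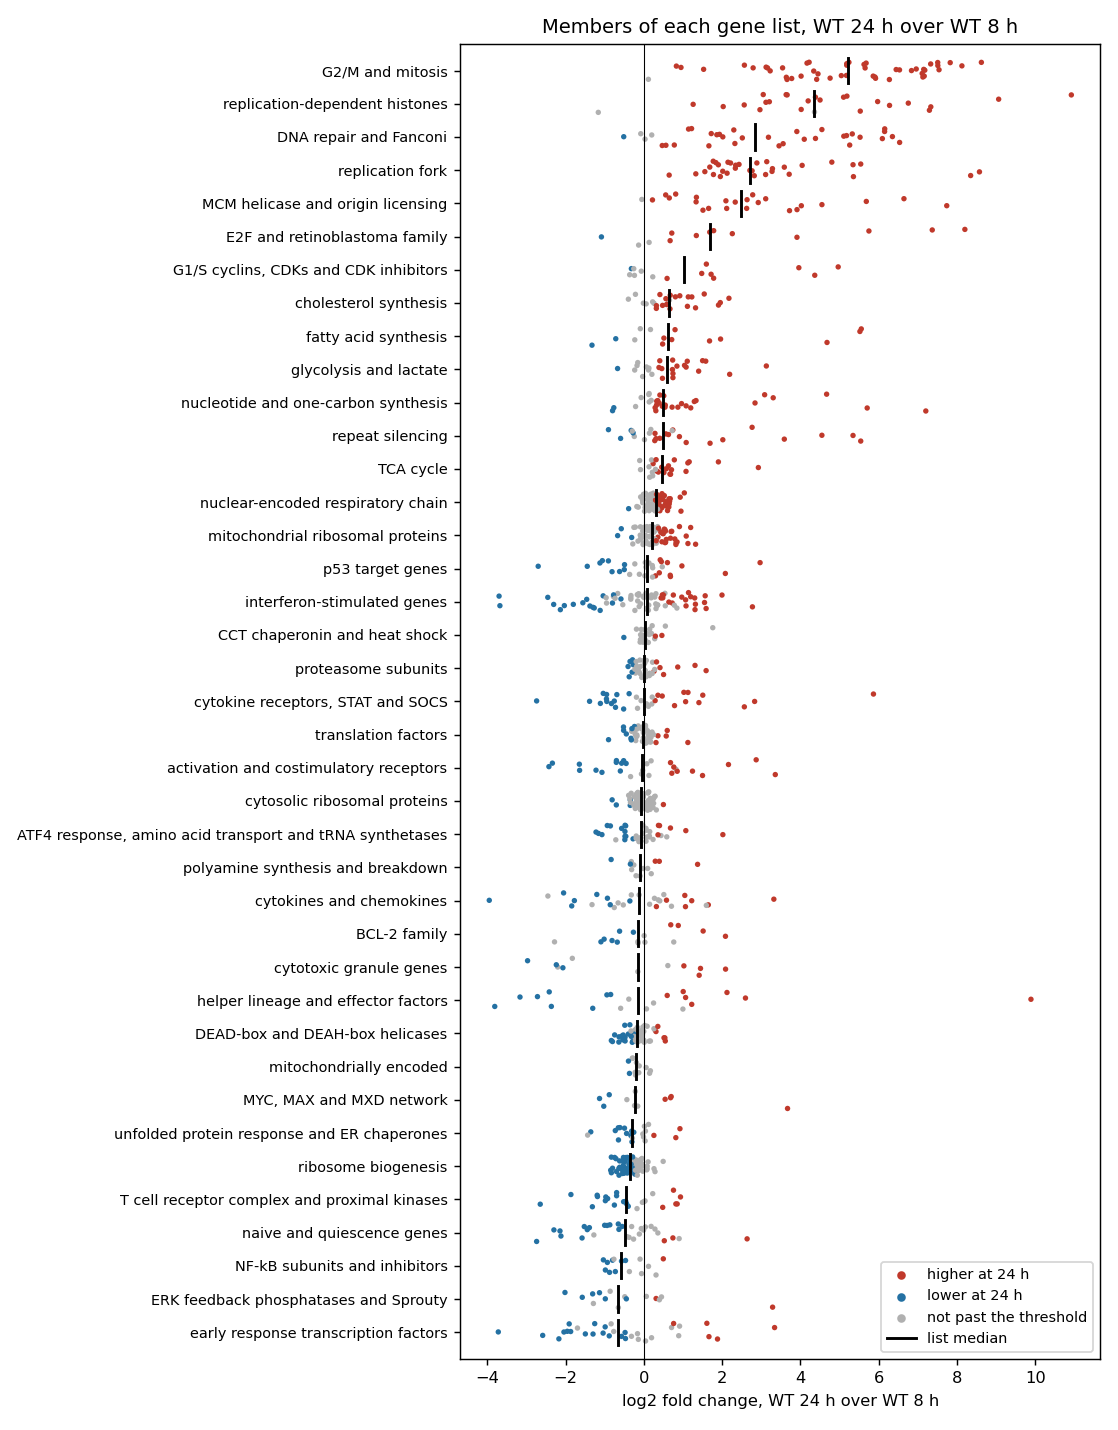
Each point is a tested member of a gene list, placed by its log2 fold change in WT cells, 24 h over 8 h (x axis), marker lists of other cells left out, with red for called higher at 24 h, blue for called lower at 24 h, grey for not past the adjusted p threshold and a black bar for the list median. Lists of mitosis, histones, DNA repair and replication lie at the top with medians between 2.48 and 5.21, and of the lists drawn those of early response factors, ERK feedback, NF-kB and naive genes lie at the bottom with medians between -0.67 and -0.49.

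The genes of DNA replication were higher at 24 h with few exceptions. Of 24 members of the MCM helicase and origin licensing list, 23 rose and 0 fell, with a median of 2.48, and the member that did not pass was Orc4 (-0.05), a subunit of the origin recognition complex. Mcm10, which helps to start the unwinding of loaded origins, had 161 and 145 CPM at 24 h, against 0.606 and 0.820 CPM at 8 h (7.74 ± 0.19, adjusted p = 2.09e-12). Cdc6, which loads the MCM ring onto origins, had 155 and 148 CPM at 24 h, against 1.38 and 1.64 CPM at 8 h (6.64 ± 0.21, adjusted p = 1.57e-11). Mcm4, a subunit of the ring, had 624 and 631 CPM at 24 h, against 90.9 and 91.9 CPM at 8 h (2.78 ± 0.09). In all 3 genes the libraries at 24 h lay apart from those at 8 h, as in 74.3% of all genes tested. Naming the members with the lowest p favours such genes. Across the time course these 3 genes were flat between 0 h and 8 h, with log2 fold changes of -0.33, -0.01 and 0.07 at 8 h over 0 h.

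The 33 members of the replication fork list were all tested and all 33 rose, with a median of 2.71 and a lowest value of 0.64. Uhrf1, which guides DNA methylation to new strands, had 757 and 705 CPM at 24 h, against 18.1 and 17.9 CPM at 8 h (5.34 ± 0.13, adjusted p = 2.09e-12). Lig1, the ligase that joins Okazaki fragments, had 491 and 486 CPM at 24 h, against 17.9 and 17.1 CPM at 8 h (4.80 ± 0.14). Chaf1a, the large subunit of the chromatin assembly factor that follows the fork, had 182 and 162 CPM at 24 h, against 3.75 and 3.63 CPM at 8 h (5.54 ± 0.17). These 3 were named as the members with the lowest p. That choice favours libraries that lie close within a time point and far from the other. Clspn, an adaptor of the replication checkpoint, and Pclaf, a partner of PCNA, rose the most in the list, by 8.57 ± 0.40 and 8.35 ± 0.43. Clspn had 161 and 147 CPM at 24 h, against 0.496 and 0.293 CPM at 8 h.

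Promoters of replication genes are shown because the members of these lists moved together. Those shown were picked from members that hold an E2F motif upstream of the start, and members without it were passed over. The stretches are RefSeq sequence of build GRCm38.p6, read 5′ to 3′ on the strand of the gene, with the E2F motif in capitals (TTTCCCGC or TTTGGCGC on either strand). They lie upstream of the RefSeq transcription start of Cdc6 (chr11:98907957-98908076, plus strand), Mcm5 (chr8:75109304-75109423, plus strand) and Pola1 (chrX:93632230-93632349, minus strand). In the annotation used to name the counted genes, Cdc6 starts at base 98907801, so there its stretch lies within the gene.
Cdc6: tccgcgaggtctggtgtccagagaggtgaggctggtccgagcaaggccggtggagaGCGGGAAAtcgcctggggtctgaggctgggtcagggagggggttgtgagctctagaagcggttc
Mcm5: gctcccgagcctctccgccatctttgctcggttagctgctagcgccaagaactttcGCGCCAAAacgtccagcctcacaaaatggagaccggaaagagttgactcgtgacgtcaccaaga
Pola1: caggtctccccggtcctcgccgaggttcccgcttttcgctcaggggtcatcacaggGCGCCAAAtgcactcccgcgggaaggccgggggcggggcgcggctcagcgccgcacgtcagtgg
In windows of 300 bases (250 before the start and 50 after it) these letters stood in 9 of the 19 licensing genes with a promoter in the table (47.4%), in 8 of 27 replication fork genes (29.6%) and in 8 of 27 DNA repair genes (29.6%). The share was 3.40% of the 10454 tested genes with a promoter, and 1.56% of all 32851 promoters. Mcm5, a subunit of the MCM ring, had 841 and 841 CPM at 24 h, against 140 and 132 CPM at 8 h (2.63 ± 0.10), and Pola1, the catalytic subunit of the primase-coupled polymerase, had 140 and 123 CPM at 24 h, against 15.9 and 13.9 CPM at 8 h (3.14 ± 0.15). A match of letters is a description of the window and not a bound site.

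Genes of mitosis made up the list with the largest median. Of 48 tested members 47 rose and 0 fell, the median was 5.21, and the member that did not pass was Pttg1 (0.11), the securin that holds separase in check. Aurkb, the kinase of the chromosomal passenger complex, had 103 and 91.4 CPM at 24 h, against 0.331 and 0.352 CPM at 8 h (8.12 ± 0.33, adjusted p = 4.12e-10). Kif4, a chromosome-bound motor, had 49.3 and 45.7 CPM at 24 h, against 0.110 and 0.117 CPM at 8 h (8.62 ± 0.54). Cdk1, the mitotic kinase, had 105 and 98.2 CPM at 24 h, against 0.937 and 0.469 CPM at 8 h (7.15 ± 0.44). At 8 h the libraries held 2 and 2 counts of Kif4, 6 and 6 of Aurkb, and 17 and 8 of Cdk1, so the sizes of these fold changes rest on few counts at 8 h. Ncaph, a condensin subunit, had 104 and 99.7 CPM at 24 h, against 7.72 and 7.15 CPM at 8 h (3.78 ± 0.13). Mki67, the proliferation marker, had 621 and 449 CPM at 24 h, against 3.03 and 2.696 CPM at 8 h (7.54 ± 0.43), the widest gap between the 2 libraries at 24 h among the mitosis genes described here.

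The mitosis list was not flat before this step. Its median log2 fold change was -1.37 at 8 h over 0 h, in a comparison that shares the 8 h libraries with the step described here. Its summed level was 963 and 931 CPM at 0 h, 400 and 410 CPM at 8 h, and 5032 and 4241 CPM at 24 h, so the 8 h libraries hold the lowest of the 3 levels and the 24 h libraries the highest. The licensing list, in comparison, had 908 and 953 CPM at 0 h, 1295 and 1279 CPM at 8 h, and 6027 and 5971 CPM at 24 h.

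Promoters of mitosis genes, picked from those that hold the CHR (TTTGAA or TTTAAA on either strand) upstream of the start, are shown with it in capitals. The stretches end at the base before the transcription start of Ckap2l (chr2:129297213-129297332, minus strand), which codes for a spindle protein, and Ncapg (chr5:45669805-45669924, plus strand), which codes for a condensin subunit, both from RefSeq, GRCm38.p6, on the strand of the gene.
Ckap2l: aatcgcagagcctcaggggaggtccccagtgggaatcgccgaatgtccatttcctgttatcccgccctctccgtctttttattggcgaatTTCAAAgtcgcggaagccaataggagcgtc
Ncapg: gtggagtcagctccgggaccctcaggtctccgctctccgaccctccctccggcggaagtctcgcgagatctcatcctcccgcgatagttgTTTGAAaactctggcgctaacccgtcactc
The CHR letters stood in 30 of the 40 mitosis genes with a promoter in the table (75%), in 7 of 19 licensing genes (36.8%), in 5 of 27 replication fork genes (18.5%) and in 22.7% of the tested genes with a promoter. The E2F letters stood in 1 of the 40 mitosis genes (2.5%). Ckap2l had 51.9 and 40.5 CPM at 24 h, against 0.331 and 0.293 CPM at 8 h (7.18 ± 0.35), and Ncapg had 74.6 and 64.6 CPM at 24 h, against 0.276 and 0.586 CPM at 8 h (7.33 ± 0.33).

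**Figure D2:**
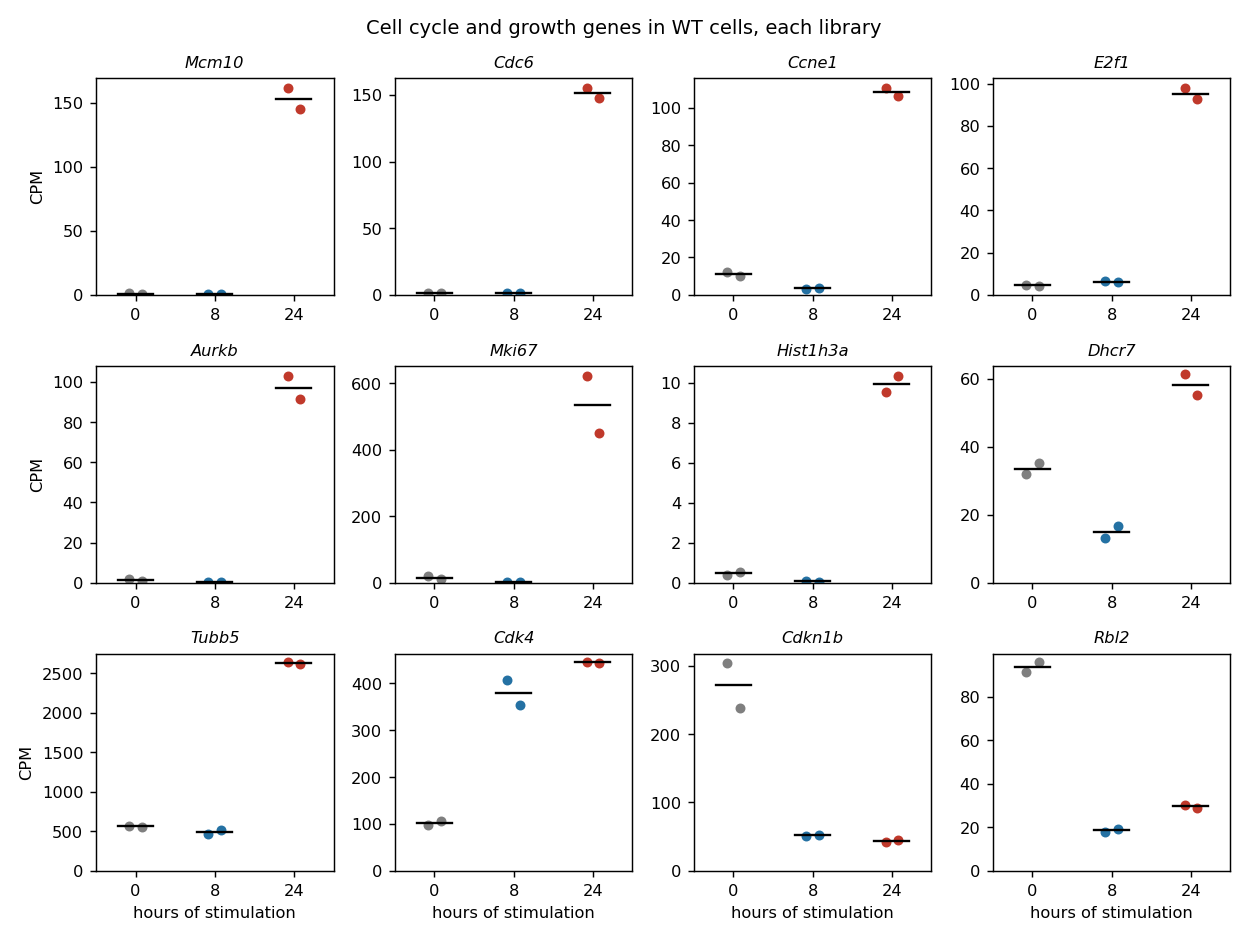
CPM (y axes, linear from 0) of 12 genes in each WT library at 0, 8 and 24 h (x axes), with 1 point per library and a bar at the mean of 2. Mcm10, Cdc6, Ccne1, E2f1, Aurkb, Mki67, Hist1h3a and Tubb5 stand highest at 24 h, Dhcr7 dips at 8 h, and Cdk4, Cdkn1b and Rbl2 made most of their change before 8 h.

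Histone genes that are transcribed with replication were read as well, since the RNA was not selected for poly(A) tails, which most of these transcripts lack. Of 37 listed genes 25 passed the filter on low counts; 23 of those rose, 0 fell, and Hist3h2a and Hist1h2ac did not pass the test. Their summed level over the 25 tested members was 90.8 and 96.6 CPM at 24 h, against 6.95 and 6.15 CPM at 8 h. The 0 h libraries held 56.9 and 56.0 CPM. Hist1h3c had 13.8 and 13.0 CPM at 24 h and no count in either library at 8 h, which makes it at least 157-fold higher at 24 h with 3 counts over both 8 h libraries as the floor. Hist1h3a had 9.54 and 10.3 CPM at 24 h, against 0.110 and 0.0586 CPM at 8 h (6.75 ± 0.46, adjusted p = 2.30e-08). These genes have near-identical copies, and the sources do not say how reads with several matches were counted. Values of single copies and of their sum are therefore uncertain. A histone gene could pass the filter by its counts at 24 h alone, so the count of 23 and the summed level describe the members that passed.

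Most genes of the E2F factors and retinoblastoma proteins rose too, and their action on the lists above was not tested. Of 13 members of the E2F and retinoblastoma family 10 rose, with E2f5 lower (-1.09 ± 0.13) and E2f4 and E2f6 not passing. E2f1, an activator, had 98.0 and 92.6 CPM at 24 h, against 6.51 and 6.15 CPM at 8 h (3.91 ± 0.14, adjusted p = 4.45e-11). E2f2, another activator, had 79.7 and 67.6 CPM at 24 h, against 1.38 and 1.35 CPM at 8 h (5.75 ± 0.28). E2f8, an atypical repressor, had 63.3 and 57.6 CPM at 24 h, against 0.276 and 0.117 CPM at 8 h (8.20 ± 0.78). E2f2 was the one of these with a clear level at 0 h, 29.2 and 28.5 CPM, and its 8 h level was below both other times. Rbl2, a pocket protein of resting cells, had 30.2 and 29.1 CPM at 24 h, against 17.9 and 19.4 CPM at 8 h (0.67 ± 0.16), still under its 91.1 and 95.8 CPM at 0 h.

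Among G1/S cyclins, kinases and inhibitors, 8 of 14 tested members rose and Ccnd2 fell. Ccne1, cyclin E1, had 111 and 106 CPM at 24 h, against 3.25 and 3.69 CPM at 8 h (4.96 ± 0.18, adjusted p = 3.79e-11). Cdk2, its partner kinase, had 172 and 158 CPM at 24 h, against 49.0 and 51.5 CPM at 8 h (1.72 ± 0.10). Ccnd3, cyclin D3, had 204 and 198 CPM at 24 h, against 61.8 and 71.1 CPM at 8 h (1.59 ± 0.12). Cyclin D2 went the other way: Ccnd2 had 1104 and 1056 CPM at 24 h, against 1333 and 1365 CPM at 8 h (-0.32 ± 0.12, adjusted p = 0.0486), a call that was lost without any 1 of the 4 libraries (adjusted p between 0.110 and 0.196). Cdk4 (0.23 ± 0.13, adjusted p = 0.200) and the inhibitor Cdkn1b (-0.26 ± 0.13, adjusted p = 0.128) did not pass, after log2 fold changes of 1.90 and -2.38 at 8 h over 0 h. Cdkn2c, an inhibitor of cyclin D kinases, had 18.4 and 16.996 CPM at 24 h, against 0.772 and 0.938 CPM at 8 h (4.36 ± 0.28).

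Enzymes that make DNA precursors rose within a list that was otherwise modest. Of 32 nucleotide and one-carbon genes 24 rose and 2 fell, with a median of 0.49. Rrm2, the cell cycle regulated subunit of ribonucleotide reductase, had 416 and 388 CPM at 24 h, against 3.20 and 2.23 CPM at 8 h (7.20 ± 0.27, adjusted p = 3.87e-09). Tyms, thymidylate synthase, had 155 and 145 CPM at 24 h, against 6.01 and 5.74 CPM at 8 h (4.67 ± 0.14). The median of this list at 8 h over 0 h was 1.45, against 0.24 for the licensing list and 0.05 for the replication fork list. In DNA repair and the Fanconi pathway 30 of 34 genes rose, with a median of 2.85, and Atrip (-0.52), a checkpoint partner of ATR, fell. Exo1, a nuclease of end resection, had 92.7 and 82.8 CPM at 24 h, against 1.98 and 1.82 CPM at 8 h (5.52 ± 0.16).

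The 10 largest rises by fold under the naming rule, which asks for a mean of at least 5 CPM, were those of Lrr1, Hist1h3c, Neil3, Kif4, Clspn, Kif14, Pclaf, E2f8, Aurkb and Esco2. Lrr1, a substrate receptor that helps to unload the replicative helicase, had 18.3 and 18.5 CPM at 24 h and no count in either library at 8 h, at least 216-fold higher with the same floor. Neil3, a DNA glycosylase, had 19.2 and 18.7 CPM at 24 h, against 0.0551 and 0 CPM at 8 h (9.07 ± 0.44, adjusted p = 6.75e-10). By difference in CPM the leading genes were Tubb5, Gapdh, Eef2, Pkm and Eno1. Tubb5, a beta tubulin, had 2640 and 2614 CPM at 24 h, against 471 and 513 CPM at 8 h (2.42 ± 0.11). Eef2, the ribosomal translocase, had 5510 and 5886 CPM at 24 h, against 4740 and 4462 CPM at 8 h (0.31 ± 0.12, adjusted p = 0.0443), a call lost without any 1 of the 4 libraries (adjusted p between 0.0806 and 0.217).

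**Figure D3:**
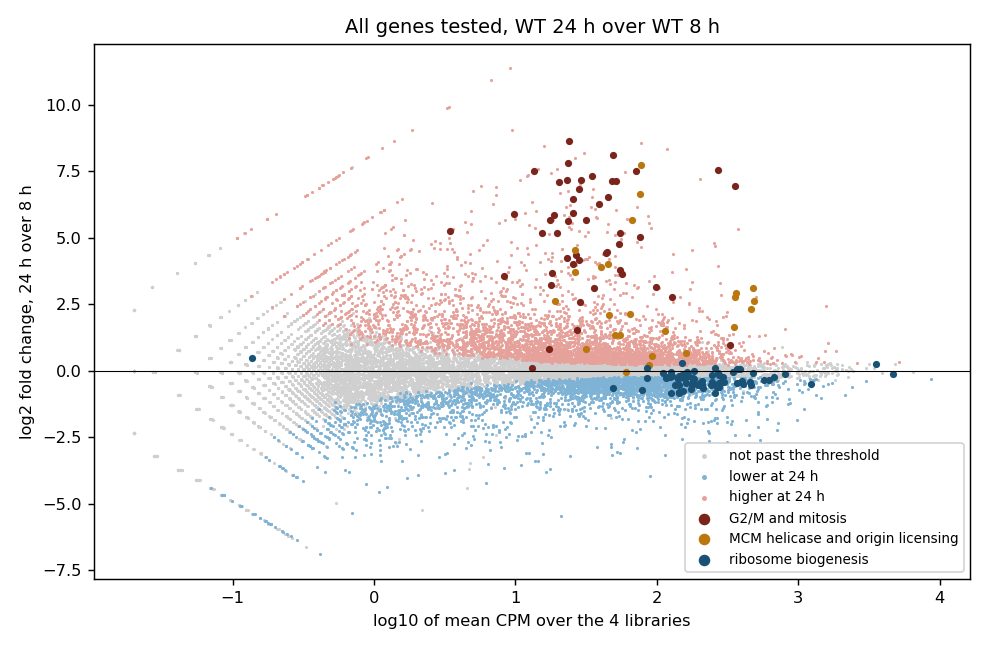
Every tested gene by the log10 of its mean CPM over the 4 libraries (x axis) and its log2 fold change, 24 h over 8 h (y axis), with calls in pale red (higher) and pale blue (lower) and 3 lists drawn larger. The mitosis and licensing genes lie above 0 with medians of 5.21 and 2.48, and the ribosome biogenesis genes lie in a narrow band with a median of -0.35.

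Early response transcription factors fell more often than they rose. Of 32 tested members 16 fell and 5 rose, with a median of -0.67, after a median of 2.24 at 8 h over 0 h. Egr2, an early growth response factor, had 80.8 and 92.1 CPM at 24 h, against 337 and 335 CPM at 8 h (-1.96 ± 0.10, adjusted p = 1.11e-09). Irf4, a factor whose level follows receptor strength, had 964 and 928 CPM at 24 h, against 1917 and 1983 CPM at 8 h (-1.04 ± 0.19). Myc, the growth regulator, had 482 and 475 CPM at 24 h, against 914 and 856 CPM at 8 h (-0.89 ± 0.11). The 0 h libraries held less than those at 24 h, with 15.003 and 8.73 CPM of Irf4 and 101 and 99.3 CPM of Myc. Nr4a1, an orphan receptor induced by the T cell receptor, had 401 and 443 CPM at 24 h, against 1611 and 1479 CPM at 8 h (-1.87 ± 0.51, adjusted p = 0.0250). The 0 h libraries differed for this gene, with 316 and 90.8 CPM, and its call was lost without any 1 of the 4 libraries (adjusted p between 0.0686 and 0.117).

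The 5 that rose were Batf, Batf3, Irf8, Ier3 and Ikzf4. Batf, an AP-1 partner of IRF4, had 33.2 and 37.7 CPM at 24 h, against 11.1 and 11.3 CPM at 8 h (1.66 ± 0.12, adjusted p = 6.38e-08), close to its 29.7 and 30.1 CPM at 0 h. Irf8 had 299 and 298 CPM at 24 h, against 85.3 and 77.0 CPM at 8 h (1.88 ± 0.34). Without the first library at 24 h, 3 members rose. NF-kB subunits and inhibitors moved the same way as the early factors, with 8 of 15 lower and Bcl3 higher (0 higher without any 1 of the 4 libraries). Nfkb1, the p105 and p50 subunit, had 934 and 903 CPM at 24 h, against 1794 and 1716 CPM at 8 h (-0.93 ± 0.10). Of 15 ERK feedback genes 6 fell and 2 rose (1 rose without the first library at 24 h or either at 8 h), and Spry1, a Sprouty inhibitor, had 121 and 144 CPM at 24 h, against 528 and 545 CPM at 8 h (-2.02 ± 0.13).

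**Figure D4:**
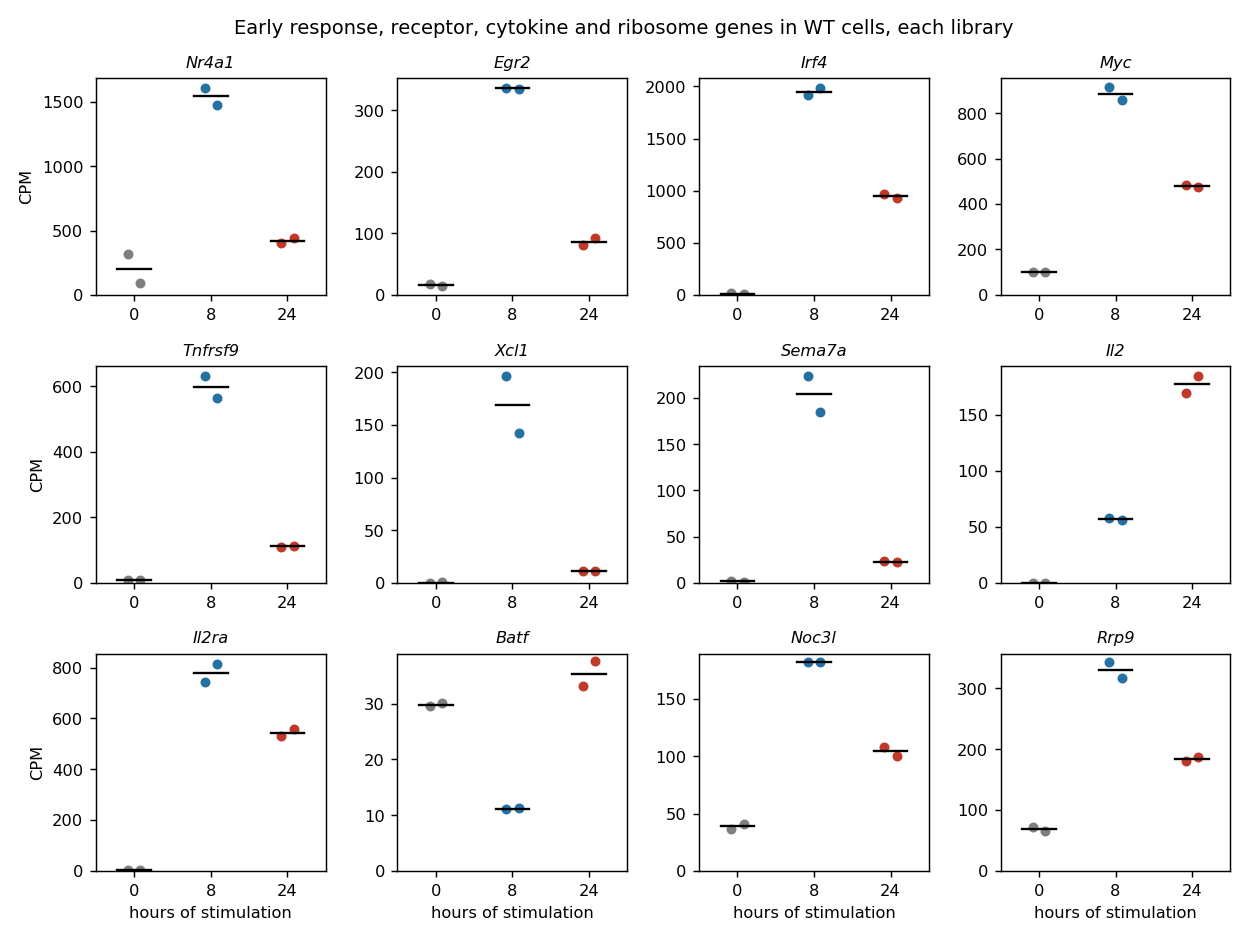
CPM (y axes, linear from 0) of 12 genes in each WT library at 0, 8 and 24 h (x axes), with 1 point per library and a bar at the mean of 2. Nr4a1, Egr2, Irf4, Myc, Tnfrsf9, Xcl1, Sema7a, Il2ra, Noc3l and Rrp9 peak at 8 h among the 3 times, Il2 is highest at 24 h, and Batf dips at 8 h.

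Receptors of activation parted company. Of 28 tested members 9 rose and 12 fell, with a median of -0.05. Tnfrsf9, the costimulatory receptor 4-1BB, had 110 and 112 CPM at 24 h, against 630.5 and 563 CPM at 8 h (-2.43 ± 0.13, adjusted p = 1.86e-09). Cd69, an early activation marker, had 227 and 273 CPM at 24 h, against 778 and 787 CPM at 8 h (-1.64 ± 0.32). Cd27, a costimulatory receptor of naive and memory cells, had 68.6 and 84.8 CPM at 24 h, against 380 and 397 CPM at 8 h (-2.34 ± 0.12). Against these, Ctla4, an inhibitory receptor for B7 ligands, had 156 and 166 CPM at 24 h, against 14.8 and 16.7 CPM at 8 h (3.36 ± 0.52), and Cd44, an adhesion receptor of activated cells, had 114 and 103 CPM at 24 h, against 37.8 and 39.0 CPM at 8 h (1.497 ± 0.11). Lag3, Tfrc and Cd200 rose as well, by 2.16, 0.85 and 1.24.

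Of 29 tested cytokine genes 7 were higher and 8 lower, not far from the shares of all genes tested, 24.0% higher and 19.3% lower. Il2, the growth factor of activated T cells, had 170 and 184 CPM at 24 h, against 57.6 and 55.7 CPM at 8 h (1.64 ± 0.17, adjusted p = 8.89e-06). Xcl1, a chemokine for cross-presenting dendritic cells, had 10.9 and 10.99 CPM at 24 h, against 196 and 142 CPM at 8 h (-3.95 ± 0.32, adjusted p = 2.39e-05). Tnf had 144 and 154 CPM at 24 h, against 357 and 330 CPM at 8 h (-1.20 ± 0.12). The ligands Tnfsf8 (-1.85) and Fasl (-2.05) fell too. Sema7a, a membrane semaphorin outside the lists, fell to 23.2 and 22.1 CPM at 24 h, against 223 and 184 CPM at 8 h (-3.17 ± 0.13).

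Signalling downstream of cytokines changed by gene rather than as a list: 12 of 32 tested members rose and 13 fell. The interleukin 2 receptor shows it within 1 complex. Its alpha chain Il2ra had 529 and 558 CPM at 24 h, against 743 and 814 CPM at 8 h (-0.52 ± 0.11), and its beta chain Il2rb had 370 and 369 CPM at 24 h, against 140 and 120 CPM at 8 h (1.504 ± 0.10). Il7r, the receptor chain for interleukin 7, which keeps naive cells alive, had 11.5 and 13.0 CPM at 24 h, against 85.3 and 79.1 CPM at 8 h (-2.74 ± 0.13, adjusted p = 6.52e-10), after 625 and 728 CPM at 0 h. Socs2, a feedback inhibitor of STAT5, had 44.8 and 42.1 CPM at 24 h, against 0.717 and 0.762 CPM at 8 h (5.86 ± 0.31). Pim2, a kinase induced by STAT5, had 500 and 503 CPM at 24 h, against 73.5 and 67.7 CPM at 8 h (2.83 ± 0.12). Il12rb1, a chain of the interleukin 12 receptor, had 212 and 232 CPM at 24 h, against 36.8 and 38.1 CPM at 8 h (2.57 ± 0.11).

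Of 20 helper lineage and effector factors 7 rose and 8 fell. Bcl6, the repressor of follicular helper cells, had 9.70 and 9.69 CPM at 24 h, against 86.0 and 88.3 CPM at 8 h (-3.17 ± 0.14, adjusted p = 2.65e-10). Tbx21, the T-bet gene of type 1 cells, had 69.6 and 53.2 CPM at 24 h, against 9.37 and 10.96 CPM at 8 h (2.59 ± 0.19). Maf, a factor of follicular and interleukin 10 producing cells, had 1.56 and 2.81 CPM at 24 h, against 28.2 and 33.5 CPM at 8 h (-3.81 ± 0.39). All 3 had separate groups, as did 74.3% of all genes tested, and the rules by which they were named favour such genes. The level of Bcl6 at 24 h was under its 24.6 and 20.9 CPM at 0 h. Ccr6, a chemokine receptor of type 17 cells, had 7.54 and 5.57 CPM at 24 h and no count at 8 h, at least 77.0-fold higher with 3 counts over both 8 h libraries as the floor. In cytotoxic granule genes 4 of 11 tested members rose and 3 fell, and 1 or 2 rose without the first library at 24 h or either at 8 h. Srgn, the proteoglycan of secretory granules, had 230 and 262 CPM at 24 h, against 1117 and 1203 CPM at 8 h (-2.24 ± 0.11), and Prf1, the pore-forming protein, had 1.78 and 1.19 CPM at 24 h, against 12.7 and 10.7 CPM at 8 h (-2.97 ± 0.28). The 10 largest falls by fold under the naming rule were those of Ramp3, Xcl1, Maf, Ifi213, Oasl2, Tuba3a, Hba-a2, Hba-a1, Ifi208 and Hbb-bs. Ramp3, a receptor accessory protein, had 1.08 and 0.758 CPM at 24 h, against 52.8 and 29.6 CPM at 8 h (-5.48 ± 0.51).

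Genes of the naive state fell further. Of 30 tested members 14 fell and 3 rose (1 rose without either second library), with a median of -0.49, and the summed level was 13721 and 13262 CPM at 0 h, 6128 and 6497 CPM at 8 h, and 3688 and 4109 CPM at 24 h. Klf2, a factor that maintains quiescence and homing receptors, had 18.1 and 30.3 CPM at 24 h, against 106 and 132 CPM at 8 h (-2.30 ± 0.33). S1pr1, the receptor used to leave lymph nodes, had 12.01 and 19.7 CPM at 24 h, against 71.2 and 69.1 CPM at 8 h (-2.15 ± 0.20). Dapl1 went the other way, with 34.6 and 39.4 CPM at 24 h, against 5.18 and 6.74 CPM at 8 h (2.64 ± 0.17), and 95.3 and 87.1 CPM at 0 h. Tcf7 (-0.27) and Ccr7 (-0.12) did not pass the test. In the T cell receptor complex and its proximal kinases 15 of 25 genes fell and 5 rose. Ptpn22, a phosphatase that limits receptor signals, had 57.5 and 70.0 CPM at 24 h, against 396 and 404 CPM at 8 h (-2.65 ± 0.12), and Zap70, the kinase recruited to the receptor, had 374 and 425 CPM at 24 h, against 886 and 935 CPM at 8 h (-1.19 ± 0.11).

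Ribosome assembly was lower at 24 h than at 8 h by small amounts. Of 74 tested biogenesis genes 45 fell and 0 rose, with a median of -0.35 and a lowest value of -0.85, after a median of 1.85 at 8 h over 0 h. The list summed to 7029 and 7352 CPM at 0 h, 29598 and 27433 CPM at 8 h, and 24730 and 24120 CPM at 24 h, so most of the earlier gain was present at 24 h. Rrp9, a U3 particle protein, had 180 and 187 CPM at 24 h, against 343 and 317 CPM at 8 h (-0.85 ± 0.12, adjusted p = 3.26e-05). Noc3l, a factor of large subunit assembly, had 108 and 101 CPM at 24 h, against 182 and 182 CPM at 8 h (-0.80 ± 0.10), and Ddx10, a helicase of the small subunit processome, had 100.4 and 107 CPM at 24 h, against 187 and 183 CPM at 8 h (-0.83 ± 0.10). Polr1b, a subunit of RNA polymerase I, fell by 0.62 on the log2 scale, and Ncl, nucleolin, did not pass (-0.11 ± 0.12, adjusted p = 0.490). Of 79 cytosolic ribosomal protein genes Rpl13a rose and 4 fell, Rpl24, Rps27, Rps7 and Rplp2; without the first library at 24 h, or either library at 8 h, 1 lower call was left, and with other scalings, DESeq2 or fewer libraries in the fit there were 7 to 21. Many of these genes have processed pseudogenes that can share their reads. Of 47 DEAD-box and DEAH-box helicases, the family of Ddx55, 17 fell and 5 rose (2 or 3 rose without the second library at 24 h or either at 8 h).

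Glycolysis and lipid genes rose. Of 26 glycolysis and lactate genes 17 rose and 1 fell, with a median of 0.60, and the list summed to 11844 and 11982 CPM at 24 h, against 7247 and 6970 CPM at 8 h. Eno1, enolase 1, had 1183 and 1225 CPM at 24 h, against 407 and 399 CPM at 8 h (1.58 ± 0.13, adjusted p = 1.74e-07). Tpi1, triose phosphate isomerase, had 515 and 513 CPM at 24 h, against 110 and 115 CPM at 8 h (2.19 ± 0.20). Gapdh had 2124 and 2207 CPM at 24 h, against 1065 and 1045 CPM at 8 h (1.04 ± 0.12), a change to bear in mind where this gene serves as a constant. Of 26 cholesterol genes 19 rose and 0 fell, with a median of 0.63. Dhcr7, which makes cholesterol from its last precursor, had 61.4 and 55.2 CPM at 24 h, against 13.3 and 16.8 CPM at 8 h (1.95 ± 0.15), and Acat2, a thiolase at the head of the pathway, had 68.3 and 61.7 CPM at 24 h, against 15.1 and 13.7 CPM at 8 h (2.17 ± 0.17). Scd2, a stearoyl-CoA desaturase, had 593 and 391 CPM at 24 h, against 19.02 and 19.4 CPM at 8 h (4.68 ± 0.20). It is 1 of 14 tested fatty acid genes, of which 9 rose and 2 fell, with a median of 0.61; Fads1 (1.68 ± 0.13) and Fads2 (5.55 ± 0.53), desaturases of polyunsaturated fatty acids, rose as well.

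Mvd, the decarboxylase of the mevalonate pathway, had 47.7 and 45.5 CPM at 24 h, against 12.6 and 12.2 CPM at 8 h (1.91 ± 0.15). Its promoter is shown with the CCAAT box (CCAAT on either strand) in capitals, since this box is a common partner of the sterol regulated factors of these genes. The stretch ends at the base before the transcription start (chr8:122443423-122443542, minus strand, RefSeq, GRCm38.p6) and is read on the strand of the gene.
Mvd: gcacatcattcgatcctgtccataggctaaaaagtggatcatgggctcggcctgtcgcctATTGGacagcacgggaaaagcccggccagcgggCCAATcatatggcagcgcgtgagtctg
The box stood in 17 of the 18 cholesterol genes with a promoter in the table (94.4%), in 29 of 40 mitosis genes (72.5%) and in 42.4% of the tested genes with a promoter. These 5 letters occur often, so the share in all tested genes is the value to read it against.

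Mitochondrial genes of the nucleus rose by small amounts. Of 76 nuclear-encoded respiratory chain genes 40 rose and 1 fell, with a median of 0.32, but 19 to 25 rose when the second library at 24 h or either library at 8 h was left out. Sdhd, an anchor subunit of complex II, had 167 and 166 CPM at 24 h, against 84.7 and 78.5 CPM at 8 h (1.03 ± 0.11). Of 25 citric acid cycle genes 17 rose and 0 fell, and Idh2, the mitochondrial isocitrate dehydrogenase, had 86.3 and 86.1 CPM at 24 h, against 24.7 and 21.4 CPM at 8 h (1.90 ± 0.11) and 81.1 and 84.5 CPM at 0 h. Of 75 tested mitochondrial ribosomal protein genes 27 rose and 3 fell (15 rose without the second library at 8 h), and of 12 tested mitochondrially encoded genes 0 rose and mt-Cytb and mt-Nd4 fell. Both calls, at -0.40 and -0.37, were lost without the first library at 24 h or the first at 8 h, and that of mt-Nd4 without the second at 8 h as well. Among 40 proteasome genes 7 rose and 6 fell (4 rose without the second library at 8 h, and 1 to 3 fell without any 1 library), and the 3 largest rises were the interferon-inducible catalytic subunits Psmb9 (1.59), Psmb8 (1.31) and Psmb10 (0.86). Of 22 genes of the unfolded protein response 11 fell and 3 rose, and Hspa5, the main chaperone of the endoplasmic reticulum, had 758 and 774 CPM at 24 h, against 1286 and 1257 CPM at 8 h (-0.73 ± 0.17).

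Of 44 translation factors 5 rose and 8 fell, with Eef2k, the kinase of elongation factor 2, higher (1.12) and Eif4g3, an initiation scaffold, lower (-0.90). When single libraries were left out 2 or 3 rose, and 3 or 4 fell without either library at 24 h or the first at 8 h. Of 39 tested amino acid and ATF4 genes 6 rose and 13 fell (3 rose without either library at 24 h or the second at 8 h), Slc1a5, a glutamine transporter, with 525 and 520 CPM at 24 h, against 1233 and 1208 CPM at 8 h (-1.22 ± 0.10). Of 23 tested chaperonin and heat shock genes Hspd1 (0.46) and Trap1 (0.29) rose and Hsph1 (-0.51) fell; the call of Hspd1 was lost without the second library at 8 h, and that of Trap1 in 3 of 4 such fits. Of 13 polyamine genes Paox, Sms and Amd1 rose and Smox and Mtap fell (1 fell without either library at 24 h or the first at 8 h).

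Interferon-stimulated genes were called at shares near those of all genes tested, of which 24.0% rose and 19.3% fell. Of 73 tested members 20 rose and 17 fell, with a median of 0.07, and without the second library at 24 h 11 fell. Gbp5, a guanylate-binding GTPase, had 206 and 202 CPM at 24 h, against 45.9 and 56.6 CPM at 8 h (1.99 ± 0.14, adjusted p = 5.65e-08), and Gbp2 (1.297) and Igtp (1.14) also rose. In the other direction, Irf7, a regulator of type I interferon genes, had 4.202 and 4.44 CPM at 24 h, against 23.8 and 18.99 CPM at 8 h (-2.31 ± 0.30). Oasl2 had 1.35 and 1.03 CPM at 24 h, against 15.4 and 15.2 CPM at 8 h (-3.68 ± 0.37), and Ifi213, of the IFI200 family of DNA-binding proteins, had 1.94 and 3.03 CPM at 24 h, against 33.9 and 30.9 CPM at 8 h (-3.70 ± 0.35). The fall of Ifi213 continued the one before 8 h, since its 0 h libraries held 273 and 336 CPM.

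Of 30 tested p53 target genes 10 rose and 9 fell; 5 or 6 rose without the second library at 24 h or the first at 8 h. Cdkn1a, the p21 inhibitor, had 56.7 and 87.6 CPM at 24 h, against 88.0 and 97.8 CPM at 8 h, and did not pass (-0.36 ± 0.30, adjusted p = 0.380). Trp53inp1 had 73.6 and 94.1 CPM at 24 h, against 435 and 656 CPM at 8 h (-2.70 ± 0.34). In the BCL-2 family 4 of 16 tested members rose and 6 fell. Bcl2l11, the death activator BIM, had 71.4 and 66.1 CPM at 24 h, against 144 and 150 CPM at 8 h (-1.10 ± 0.10). Bcl2l1, which codes for the survival protein BCL-XL, rose by 0.88 ± 0.14. Without the first library at 24 h or the second at 8 h, 3 family members fell. Around Myc, 4 of 11 tested network genes rose and 3 fell: Mxd3, a dimer partner of MAX found in S phase, had 9.70 and 8.55 CPM at 24 h, against 0.662 and 0.762 CPM at 8 h (3.67 ± 0.36), and Mnt, a repressor that competes with MYC, fell by 1.13 on the log2 scale.

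RNA of repeats was lower at 24 h. Counts at repeat loci, set against gene counts, summed to 64395 and 62157 CPM at 24 h, against 77521 and 83074 CPM at 8 h, or 78.8% of the 8 h level. Of 1181 repeat subfamilies tested, 33 (2.79%) rose and 236 (20.0%) fell, 22.8% in all, with a median of -0.33. The split depends on the scaling: with library sizes of the repeat table itself 78 rose and 92 fell, with a median of -0.04, so 45.9% of the calls were higher in place of 12.3%. The lower calls numbered 97, 60, 98 and 57 when the first or second library at 24 h or the first or second at 8 h was left out, and 18 rose without either second library. With the replicate number as a block, 54 rose and 424 fell. Loci inside genes count as well, where a read of an intron or untranslated end of a gene is counted at the repeat. Over loci outside annotated genes 18 subfamilies rose and 99 fell. The counter, its handling of reads with several matches and its use of strand are not named in the sources, so reads of near-identical copies may be split between loci.

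By class, 19 of 37 tested SINE subfamilies fell, 28 of 175 LINE, 159 of 775 LTR and 29 of 191 DNA subfamilies. LTR elements of the ERV1 family, which include the VL30 elements, had the largest relative fall among the families with the most counts, with 9123 and 8840 CPM at 24 h, against 12345 and 14446 CPM at 8 h, or 67.0% of the 8 h level. The 2 libraries at 8 h differed here by more than those at 24 h. The 3 repeat loci with the most counts are intergenic VL30 copies of this family: the first, on chromosome 11 (chr11:86811739-86815896, mm10), had 2106 and 2118 CPM at 24 h, against 3836 and 4771 CPM at 8 h. The second, on chromosome 6, had 2195 and 2190 CPM at 24 h, against 3543 and 4259 CPM at 8 h. The third, on chromosome 19, had 1256 and 1195 CPM at 24 h, against 1678 and 1935 CPM at 8 h. The fall of the family sum lies in these 3 loci and does not describe the rest of the family. L1 elements of the LINE class stood at 78.9% of the 8 h level, and repeat loci in exons at 89.7%, in introns at 75.4% and between genes at 65.0%. The value between genes includes the 3 VL30 loci and is lowered by them.

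**Figure D5:**
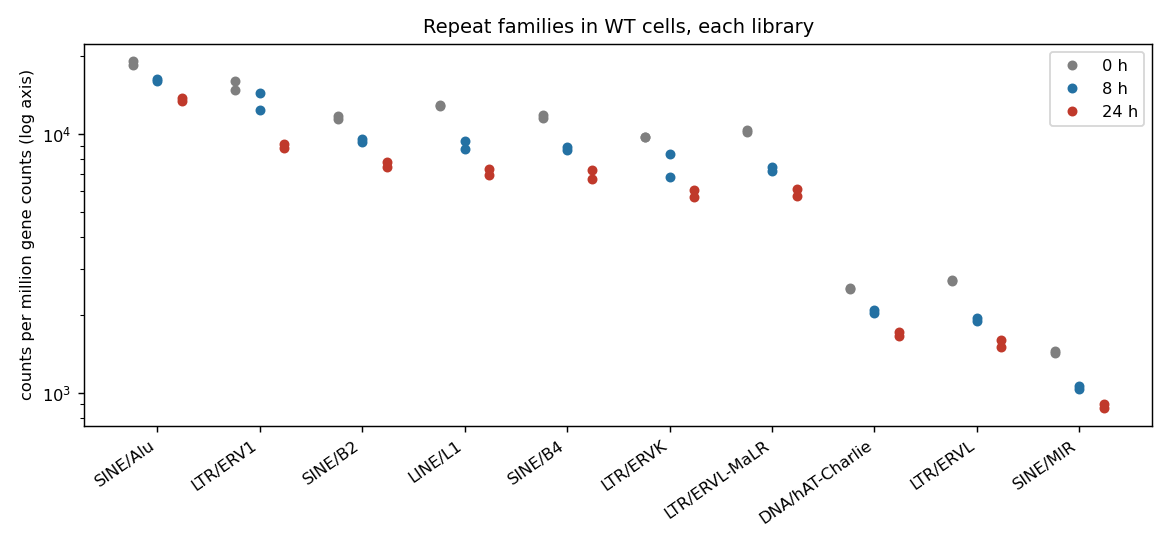
Summed counts of the repeat families with the most counts, scaled to gene counts as CPM (y axis, log scale), with 1 point for each WT library at 0 h (grey), 8 h (blue) and 24 h (red). Each family is lowest at 24 h, and the 2 libraries at 8 h of LTR/ERV1 and LTR/ERVK lie apart.

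The subfamilies with the largest changes each rested on 1 leading locus that held 53.3% to 100% of their counts in the 4 libraries. ERVB7_1-LTR_MM joined with MMETn-int rose to 250 and 213 CPM at 24 h, against 27.9 and 25.9 CPM at 8 h (3.11 ± 0.16, adjusted p = 1.90e-09), with 93.4% of the counts at chr17:32369422-32376516 (mm10), in an exon of Wiz and of Gm26858 in the annotation. MuLV-int rose to 47.1 and 43.3 CPM at 24 h, against 6.34 and 7.09 CPM at 8 h (2.75 ± 0.25), with 92.4% at chr4:134162052-134163888, in an intron of Cep85. RLTR41C joined with RLTR6-int rose by 2.32, with 100% in an exon of Brip1os. Those loci lie in genes, so the repeat and its host cannot be told apart. RLTR30D_RN (2.54) and MMERVK9E_I-int joined with RLTR9E (2.33) had leading loci between genes, on chromosomes 17 and 5. The locus on chromosome 5 (chr5:30046450-30049768) lies past the end of Tyms (chr5:30058202-30073617, minus strand), which rose by 4.67. The part of neighbouring genes in the counts of these 2 loci was not tested. Of the falling subfamilies, ERVB2_1-I_MM joined with RLTR13D2 fell to 3.39 and 4.76 CPM at 24 h, against 43.7 and 55.5 CPM at 8 h (-3.60 ± 0.28, adjusted p = 6.27e-06), and 67.9% of its counts lay at chr1:173566173-173572495 in an exon of Ifi213, the gene described above. IAPEY3_LTR joined with IAPEy-int (-3.41) had 86.7% of its counts in the same gene, and its call was lost without either library at 24 h. RLTR44-int joined with RLTR44C (-1.84), ERVB4_1B-I_MM (-1.82) and ERVB4_1-I_MM joined with RLTR50A (-1.78) led with loci in Slc29a3, in a region shared by Raet1e and H60b, and in Vmn2r97. The last of these calls was lost in 3 of 4 fits without 1 library.

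Genes that silence repeats were tested beside them. Of 26 tested members 16 rose and 4 fell, with a median of 0.48, and 2 or 1 fell without the first library at 24 h or the second at 8 h. Dnmt1, the maintenance DNA methyltransferase, had 907 and 853 CPM at 24 h, against 126 and 133 CPM at 8 h (2.76 ± 0.11, adjusted p = 7.70e-11), and Hells, a remodeller needed for DNA methylation, had 356 and 321 CPM at 24 h, against 15.2 and 13.7 CPM at 8 h (4.55 ± 0.13). Chaf1a and Uhrf1, described with the fork, belong to this list too, so the list is not independent of replication. The part of these genes in the repeat levels was not tested.

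The same step was compared with that of KO cells, as a difference of 2 log2 fold changes in 1 fit. Of 15679 genes, 1405 (8.96%) had a higher step in WT than in KO and 860 (5.49%) a lower one, 14.4% in all; between 466 and 592 had a lower step when single WT libraries were left out, fewest without the first at 24 h. In the mitosis list 45 of 48 genes had a higher step in WT and 0 a lower one, with a median difference of 3.74. In the fork list it was 33 of 33, in the licensing list 21 of 24, in the repair list 28 of 34 and in the cholesterol list 24 of 26, each with 0 lower. The cholesterol list had a median difference of 1.24, against a median of 0.63 within WT, where 19 genes rose. The rise within WT therefore does not account for all of that difference. In the fork list the median difference was 2.18, against 2.71 within WT. Mki67 differed by 5.60 ± 0.53 (adjusted p = 0.000381) and Mcm5 by 2.24 ± 0.13 (adjusted p = 8.73e-08). The histone list, in which 23 genes rose in WT, had 2 genes with a higher step and 1 with a lower one. Its median difference was 1.92, so the few calls do not show a small difference. Hist1h3a, with 2 and 1 counts in WT at 8 h, differed by 3.31 ± 1.23 and did not pass (adjusted p = 0.140). Among p53 targets 16 of 30 had a lower step in WT (10 without the first library at 24 h), Cdkn1a among them (-1.75 ± 0.42, adjusted p = 0.0306), whose fold change within WT did not pass. Ribosome biogenesis had 2 higher and 1 lower of 74, and Il2 did not differ past the threshold (0.07 ± 0.24, adjusted p = 0.881).

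Markers of other cells were read from 8 lists, as sums of CPM of the tested members in each library. Stromal and endothelial markers had 0 of 9 tested genes called. Myeloid and dendritic markers summed to 113 and 136 CPM at 24 h, against 119 and 115 CPM at 8 h, with Itgax alone called, at under 1 CPM in all 4 libraries, and 2 listed markers at 0 in all 4. Basophil and mast cell markers summed to 14.6 and 15.05 CPM at 24 h, against 19.4 and 14.1 CPM at 8 h, with Kit alone called (-2.09), and CD8 T and NK cell markers to 26.8 and 21.4 CPM at 24 h, against 22.7 and 22.2 CPM at 8 h. Of the 13 tested members of that last list, Cd8a rose (3.02 ± 0.61), with 1.67 and 1.19 CPM at 24 h, against 0.276 and 0.0586 CPM at 8 h, while the NK receptor genes Klrd1 (-3.86 ± 0.39) and Klrc1 (-2.39 ± 0.65) fell, the median being -1.57. Klrd1 had 0.377 and 0.433 CPM at 24 h, against 5.13 and 6.80 CPM at 8 h, and the call of Klrc1 was lost without the second library at 24 h or the first at 8 h. B cell markers, of which 3 of 8 tested rose and 0 fell, summed to 234 and 249 CPM at 24 h, against 109 and 83.2 CPM at 8 h. Ighm, the heavy chain of IgM, had 227 and 243 CPM at 24 h, against 75.7 and 77.0 CPM at 8 h (1.62 ± 0.15). This gene made up most of each sum and accounts for the rise of the sum. Fold changes in the list ran from -5.24, not called, to 3.31, with a median of 0.60. The receptor gene Cd79b had 1.29 and 1.08 CPM at 24 h, against 0.165 and 0.0586 CPM at 8 h (3.31 ± 0.54), and Ighd rose by 1.71 ± 0.41, a call lost without the first library at 8 h. Cd79a, which codes for the partner of Cd79b, did not pass, with 1.40 and 0.812 CPM at 24 h, against 1.49 and 1.47 CPM at 8 h. Granulocyte markers were lower, at 38.5 and 35.3 CPM at 24 h, against 202 and 187 CPM at 8 h, and Gfi1, which activated T cells express too, made up nearly all of it, while 4 listed markers had no count in the 4 libraries; Gfi1 had 37.8 and 34.7 CPM at 24 h, against 200 and 185 CPM at 8 h.

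Regulatory T cell markers summed to 333 and 375 CPM at 24 h, against 314 and 325 CPM at 8 h, and 4 of 9 rose: Foxp3, the defining factor, had 12.9 and 13.4 CPM at 24 h, against 2.76 and 3.28 CPM at 8 h (2.12 ± 0.20), with Gpr83, Ikzf4 and Izumo1r. Erythroid and platelet markers were lower and uneven, at 17.1 and 6.44 CPM at 24 h, against 155 and 40.6 CPM at 8 h. The haemoglobin genes Hba-a1, Hba-a2 and Hbb-bs were among the 10 largest falls under the naming rule, at -3.41, -3.51 and -3.21. Hbb-bs had 7.44 and 1.95 CPM at 24 h, against 68.7 and 18.3 CPM at 8 h, with the first library several times above the second at each time, and all 3 calls were lost without either library at 24 h or the first at 8 h (adjusted p up to 0.243). Hba-a1 and Hba-a2 are near-identical copies. Of the 10 tested erythroid and platelet markers 3 were called lower, and 7 with the replicate number as a block. The part of any of these cells in the changes above was not tested.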

How the data were processed

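The authors deposited whole-number raw counts of genes and of repeat loci for 12 libraries. The submitters' processing notes name fastp 0.12.4, STAR 2.7.1a and build mm10, with no roles. For the counter, UMI use and strand setting: not given in the sources used here. Groups were taken from the labels, and 0 columns were left unmapped. The gene counts of all 12 libraries were fitted with edgeR 4.0.16 in R 4.3.3 (quasi-likelihood, TMM, robust, 1 mean per group, 6 residual degrees of freedom), after filterByExpr with a minimum count of 10 and a minimum total of 15, which removed 38553 genes. Repeat loci were summed to subfamilies and fitted with the library sizes and TMM factors of the genes. P-values were adjusted by Benjamini-Hochberg over all features of a table. With 2 libraries per group, an exact permutation test of one gene cannot go below p = 0.333. DESeq2 1.42.0, other scalings, filters, library sets and leaving out each library were alternatives. The fits were also run on simulated data in which few genes changed. So many genes were called here that those runs cannot test the scaling or the share called.

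The members and the 47 lists were chosen with earlier results of these data known. Genes were named by rule: Ddx55, the 10 rising and 10 falling by fold with a mean of at least 5 CPM and no overlap (predicted and clone names skipped), the 5 per direction by difference in CPM, up to 3 of each list (those with the lowest p), and, among repeat subfamilies averaging 100 counts or more, 5 that rose and 5 that fell. This gave 152 genes, to which 65 were added after their values were seen. Promoters are RefSeq sequence of GRCm38.p6. Those printed were taken in order of p from called list members with a single RefSeq promoter and the motif upstream of its start. Genes on chromosome 18 were left out. Of 20595 genes checked, 69.5% had a promoter that runs into the start of an annotated transcript. Some genes of the lists are not reported here by name.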

Additional observations from a re-analysis of the deposited data

Results flagged for a closer look

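The step between 8 h and 24 h differed between genotypes for many genes, tested as an interaction in edgeR's quasi-likelihood fit: 1405 genes had a higher step in WT than in KO cells and 860 a lower one, of 15679 tested. The first count includes 45 of 48 mitosis genes, 33 of 33 replication fork genes and 24 of 26 cholesterol genes. The second includes 16 of 30 p53 target genes, 15 of 79 cytosolic ribosomal protein genes and 12 of 32 cytokine receptor and STAT genes. The count of ribosomal protein genes was 1, 2 and 4 without the first library at 24 h, the first at 8 h and the second at 8 h, and 56 with the replicate number as a block. Groups of 2 libraries are too small to look for single libraries that stand apart.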

How the results depend on the processing

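Genes higher at 24 h numbered 2935 to 3111 and genes lower 2198 to 2290 when 1 library was left out, against 3763 and 3020 with all. Tested against a fold of 1.5, 1830 were higher and 924 lower. Genes with a higher step in WT than in KO numbered 960 to 1068, and with a lower step 466 to 592. Repeat subfamilies numbered 18 to 24 higher and 57 to 98 lower in such fits, 18 and 99 over loci outside genes, and 78 and 92 with library sizes of the repeat table, and 152 were lower with library totals. With the replicate number as a block, 54 subfamilies rose and 424 fell. The numbers were not taken to pair the libraries in the main fit. The correlation of deviations was 0.106 between 24 h and 8 h, 0.0900 between 24 h and 0 h and 0.220 between 8 h and 0 h. The uncalled value of Pttg1, log2 fold change, WT 24 h over 8 h, was -0.012 without the second library at 24 h and 0.23 without the first. The cause of these shifts was not tested.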
